A study of Mus musculus with 73 samples.

Results

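Esco2, Rad21, Smc4 and Sgo1 are 4 genes of the machinery that holds sister chromatids together and packs them for division. They were chosen by gene symbol, current or previous, among 6795 mouse genes that carry 1 symbol on a 2-colour cDNA microarray, and 1 feature was measured for each. The choice was made with earlier results of these data known. The study asked which genes change in tumors driven by the SV40 T/t-antigen at different sites, and how these compare with other mammary tumor models. On 35 arrays a tissue (Cy3) was hybridised against Stratagene Universal Reference RNA (Cy5), and all 4 genes had a value on each of them. The C57BL/6 samples were normal prostate (n = 4) and seminal vesicle (n = 4) of wild-type mice, and prostate (n = 5) and seminal vesicle (n = 6) tumors of TRAMP mice, which carry PB/SV40 T/t-antigen, a transgene driven by the probasin promoter. The FVB samples were normal mammary gland and normal lung of wild-type mice, mammary tumors of C3(1)/SV40 T/t-antigen mice and lung tumors of CC10/SV40 T/t-antigen mice, with 4 arrays each. All tumors of these 35 arrays therefore carry the viral T/t-antigen, and the promoter, the site and in part the strain differ between them. On another 38 arrays, called direct arrays here, a mammary tumor (Cy5) was hybridised against normal mammary gland of wild-type mice of the same strain (Cy3). In FVB mice 5 tumors each came from C3(1)/SV40 T/t-antigen, MMTV-PyMT, MMTV-ras and MMTV-her2/neu animals and 4 from MMTV-myc animals. In C57BL6/129sv mice 4 came from p53fp/fp;WAP-cre and 5 from Brca1 Co/Co;MMTV-cre;p53 animals, and in Balb/c 5 were p53-/-;transplant tumors. WAP and MMTV promoters act mainly in mammary epithelium, and the transplants grew in a host animal. The labels do not say whether samples came from separate animals, so the p-values measure the spread between these samples. On the direct arrays Rad21 and Sgo1 had 38 values, Esco2 had 37 and Smc4 had 36.

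Cohesin is a ring of Smc1, Smc3 and the kleisin Rad21 that embraces both sister DNAs from replication until anaphase. Esco2 acetylates Smc3 during S phase and so makes the ring cohesive, Sgo1 (shugoshin) protects cohesin at the centromere from removal in early mitosis, and separase (Espl1) opens the ring at anaphase by cutting Rad21. Smc4 is, with Smc2, the ATPase core of condensin, which compacts mitotic chromosomes. Esco2, Sgo1 and Smc4 RNA is known to be higher in dividing than in resting cells, while Rad21 also serves chromatin loops and gene control in resting cells. Large T antigen disables p53 and the Rb family, proteins that restrain genes of DNA replication and mitosis.

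The 250 bases before an annotated start of Sgo1, the member whose promoter is in the RefSeq table used here (GRCm38.p6, chr17:53689316-53689565, minus strand), are shown because Sgo1 rose at all 4 tumor sites and in 3 direct models. The annotated span of the gene reaches to 53691331, past this window, so the positions below hold for this start only. Capitals mark the E-box motif CACGTG on the strand as printed:
Sgo1 promoter: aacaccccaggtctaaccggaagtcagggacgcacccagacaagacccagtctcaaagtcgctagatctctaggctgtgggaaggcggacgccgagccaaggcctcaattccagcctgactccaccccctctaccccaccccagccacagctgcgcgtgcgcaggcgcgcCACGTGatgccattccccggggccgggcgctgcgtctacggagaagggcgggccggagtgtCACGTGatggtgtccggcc
The E-box lay 80 and 19 bases before the start, and 66.4% of the bases were G or C. The other motifs searched on both strands were the CCAAT box, the cell cycle homology region as TTTGAA or as TTCGAA, and the E2F site as TTTCCCGC or as TTTGGCGC. None of these was found before the start. The E-box was in 7.15% of all 32851 promoters in the table, in windows that run from 250 bases before to 50 after the start. In the order named, the other motifs were in 37.41%, 17.89%, 1.56%, 1.07% and 0.51% of them. Past the start, Sgo1 held the CCAAT box at 3 bases and the second form of the cell cycle homology region at 28 bases. These are matches of letters and were not tested for a function.

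The values are log2 ratios, of sample to reference RNA on the 35 reference arrays and of tumor to normal gland on the direct arrays. A value below 0 on a reference array means less RNA of the gene than in the reference pool, and values of different genes on this scale do not rank their abundance. Of the 9596 features, 9244 to 9572 had a value on a reference array and 7042 to 7934 on a direct array. The median ratio of an array was -0.05 to 0.01 in the reference set and -0.42 to 0.66 in the direct set, which was not centred. Among the direct arrays 2 stood apart from their group for Rad21: replicate 3 of MMTV-her2/neu (-0.71) and replicate 3 of the C3(1)/SV40 T/t-antigen tumors (-0.78), which was apart for Sgo1 too. On the latter the mean of 16 proliferation markers was 0.39 against 1.31 to 1.79 on the other 4. Markers of the labelled tissues were found where the labels put them, with 8 of 8 lung epithelial genes higher in normal lung than in the other normal tissues on average, and 10 of 10 adipocyte and 6 of 8 luminal and milk genes higher in normal mammary gland. Skeletal muscle genes stood out in normal prostate, where the mean of 12 such genes was 3.62 to 4.60 against -0.15 to 0.13 in the prostate tumors. In normal mammary gland on the reference arrays this mean was -0.21, 0.06, 1.80 and 3.35, and in the mammary tumors there it was 0.09 to 2.12.

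All 4 genes rose in tumors of the prostate, mammary gland and lung, and 3 of them rose in tumors of the seminal vesicle, where Esco2 did not pass the test. In prostate the rises were 5.88- to 12.3-fold, the Esco2 rise being number 7 among 6767 genes. In lung Esco2 rose 11.2-fold, number 2 of 6774 genes, and in mammary gland Sgo1 rose 5.71-fold, number 6 of 6771. Of all genes tested, 29.2% rose in prostate, 23.3% in seminal vesicle, 16.6% in mammary gland and 16.2% in lung (adjusted p under 0.05 in limma).

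Rad21, the ring subunit that separase cuts, read -1.56, -1.57, -1.58 and -1.75 in normal prostate and 0.86, 0.87, 0.82, 1.38 and 1.68 in prostate tumors. In seminal vesicle it was -2.08, -2.03, -2.05 and -1.91 in normal tissue, and the 6 tumors ran from -1.06 over a median of -0.84 to -0.48. Every tumor array lay above every normal array of its site, but the seminal vesicle tumors stayed below 0 while the prostate tumors were all above it. Mammary gland gave -0.83, -1.28, -0.96 and -1.03 in normal tissue and 0.59, -0.02, 0.43 and 0.82 in tumors. Lung gave -0.96, -1.12, -0.54 and -0.75 in normal tissue and 0.33, 0.26, 0.68 and 0.58 in tumors. Here too the groups did not overlap, with gaps of 0.81 and 0.79 between the lowest tumor and the highest normal array. The fitted rise was 2.73 ± 0.16 (SE, log2) in prostate (adjusted p = 1.14e-15), 1.24 ± 0.15 in seminal vesicle (2.67e-07), 1.48 ± 0.17 in mammary gland (1.62e-08) and 1.30 ± 0.17 in lung (2.31e-07). In bulk tissue a change in the share of dividing cells and a change in RNA per cell cannot be told apart, here or for the genes that follow.

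Esco2, the acetyltransferase of S phase, had the widest span of tumor changes of the 4. Normal prostate read -2.13, -1.97, -2.19 and -1.79, and prostate tumors 1.5, 1.59, 1.69, 1.49 and 1.76. Normal lung read -1.91, -1.80, -1.67 and -1.79, and lung tumors 1.98, 1.93, 1.28 and 1.58. At both sites the lowest tumor lay far above the highest normal array, by 3.27 in prostate and 2.94 in lung. In mammary gland the normal arrays were -1.32, -1.40, -1.29 and -0.59 and the tumors 1.07, 0.68, 1.13 and 0.63, again with no overlap although 1 normal gland lay well above the other 3. Normal seminal vesicle read -0.86, -0.35, -0.32 and -0.81, the highest Esco2 mean among the normal tissues. The 6 seminal vesicle tumors ran from -0.72 over a median of -0.43 to -0.02, within and around the normal range. The rise was 3.62 ± 0.16 (SE, log2) in prostate (adjusted p = 1.43e-18), 3.48 ± 0.17 in lung (1.19e-16) and 2.03 ± 0.17 in mammary gland (2.73e-11). In seminal vesicle the difference was 0.18 ± 0.15 (adjusted p = 0.355), and its 95% confidence interval of -0.13 to 0.50 lies far below the changes at the other sites.

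Sgo1, the protector of centromeric cohesin, read -1.81, -2.25, -1.80 and -1.88 in normal prostate and 0.74, 0.76, 0.58, 0.58 and 0.45 in prostate tumors. In mammary gland it was -2.15, -1.72, -1.92 and -2.43 in normal tissue and 0.53, 0.38, 0.60 and 0.33 in tumors. At these sites the tumors formed a narrow band above 0 and the normal tissues lay near -2. Normal lung gave -1.84, -1.73, -0.65 and -1.56, 1 array being clearly higher than the others, and lung tumors 1.05, 0.87, 0.72 and 0.60. Normal seminal vesicle gave -2.23, -1.33, -1.95 and -1.52, and the 6 tumors ran from -1.29 over a median of -1.01 to -0.82. The seminal vesicle groups were apart by 0.04 only. The rise was 2.56 ± 0.18 (SE, log2) in prostate (adjusted p = 1.56e-13), 2.51 ± 0.19 in mammary gland (6.28e-12), 2.26 ± 0.19 in lung (9.21e-11) and 0.73 ± 0.18 in seminal vesicle (0.00132). The seminal vesicle call was lost under quantile normalization (0.27, adjusted p = 0.274) and with blocks of array numbers as a fixed factor (0.89, adjusted p = 0.191).

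Smc4, the condensin ATPase, read -1.25, -1.25, -1.22 and -2.41 in normal prostate and 1.10, 0.73, 0.88, 0.94 and 1.91 in prostate tumors. Lung gave -1.17, -1.41, -1.26 and -1.54 in normal tissue and 1.56, 1.30, 1.26 and 1.38 in tumors. All tumors at both sites were above the reference pool and all normal samples below it. Mammary gland gave -1.0, -1.11, -1.54 and -1.70 in normal tissue and 0.83, 0.58, 0.76 and 0.45 in tumors. Normal seminal vesicle was tight at -1.79, -1.78, -1.91 and -1.87, and its 6 tumors were spread from -1.44 over a median of -0.58 to 0.13. The lowest seminal vesicle tumor was 0.35 above the highest normal array. The rise was 2.72 ± 0.26 (SE, log2) in lung (adjusted p = 5.3e-10), 2.64 ± 0.24 in prostate (3.7e-11), 1.99 ± 0.26 in mammary gland (1.62e-07) and 1.32 ± 0.23 in seminal vesicle (4.01e-05). Across all genes tested, every tumor array lay above every normal array for 24.9% in prostate, 16.7% in seminal vesicle, 14% in mammary gland and 15.5% in lung, against 4, 3, 4 and 4 of these 4 genes.

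**Figure D1:**
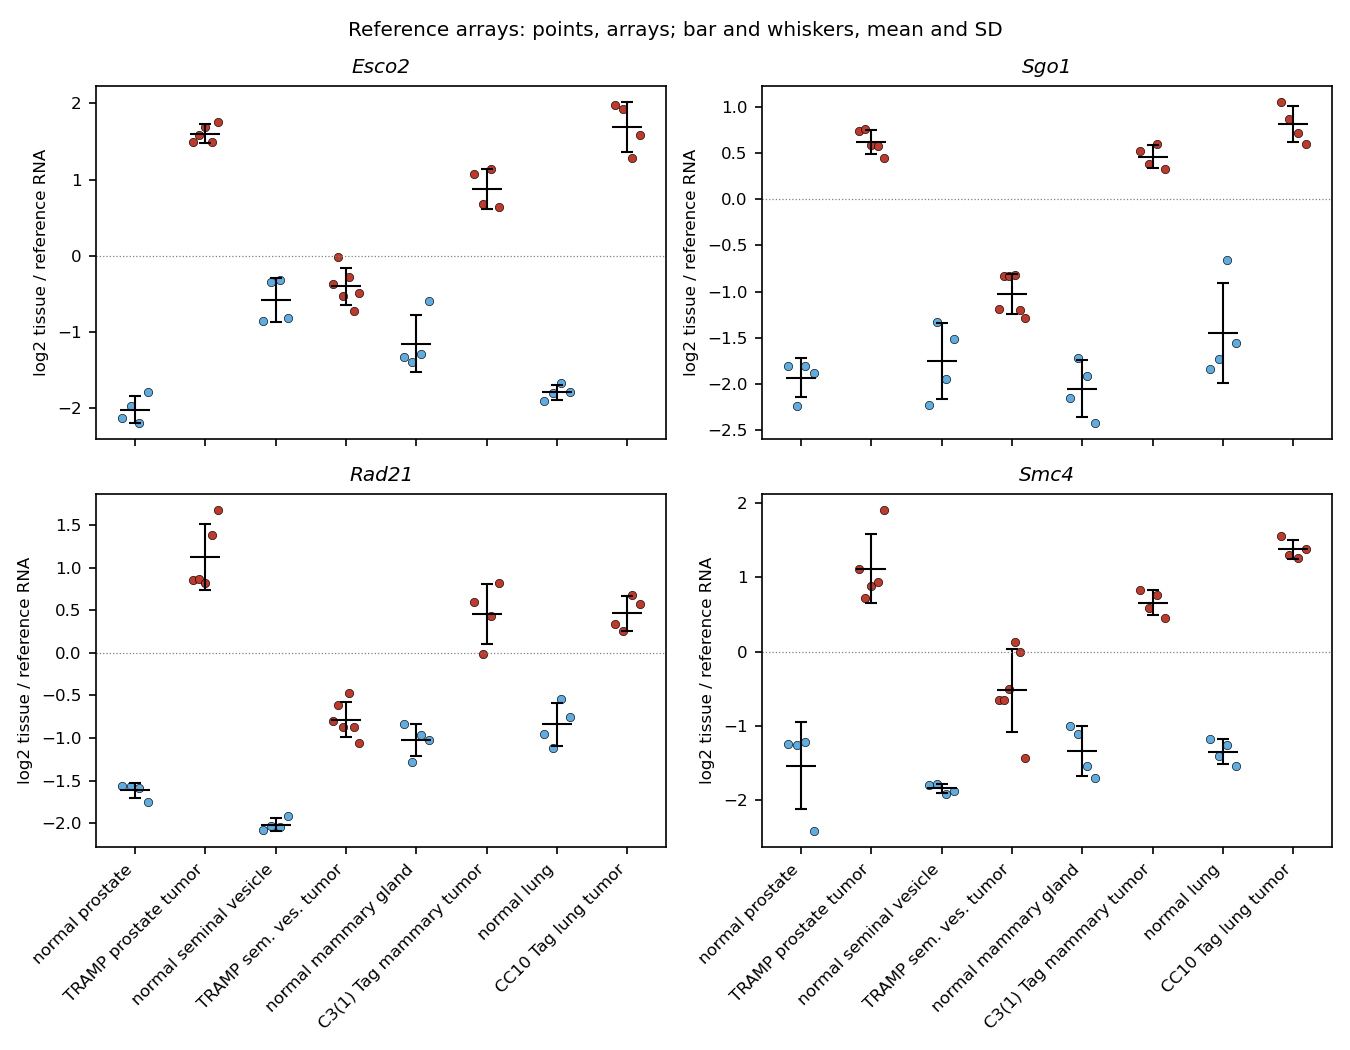
Log2 ratio of each gene to the universal reference RNA (vertical axis) on the 35 reference arrays, by site with normal and tumor arrays side by side; points are arrays, bars and whiskers the mean and SD. Tumor arrays lie above normal arrays for every gene and site except Esco2 in seminal vesicle, where the tumors run from -0.72 to -0.02 and the normal tissues from -0.86 to -0.32.

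The level in normal tissue differed between the 4 sites for Esco2 (1.44 between the highest and lowest mean on the log2 scale, adjusted p = 1.4e-08), Rad21 (1.18, 4.51e-07) and Sgo1 (0.61, 0.0289), and no difference passed for Smc4 (0.50, 0.211). Such a difference passed for 79.4% of all genes. Esco2 was highest in seminal vesicle (-0.58 ± 0.29, SD, n = 4), then in mammary gland (-1.15 ± 0.37), whose arrays overlapped it, and lowest in lung (-1.79 ± 0.10) and prostate (-2.02 ± 0.18), which overlapped each other. Rad21 had another order, with lung (-0.84 ± 0.25) and mammary gland (-1.03 ± 0.19) overlapping at the top, then prostate (-1.61 ± 0.09) and, lowest and apart, seminal vesicle (-2.02 ± 0.07). The normal arrays of neighbouring tissues in the Sgo1 and Smc4 orders overlapped. The Sgo1 call among normal tissues was lost without the high normal lung array (0.34, adjusted p = 0.192), and without either of 2 mammary gland arrays, replicate 1 (0.57, adjusted p = 0.0528) and replicate 4 (0.49, adjusted p = 0.0692). It was also lost with number blocks as a fixed factor (adjusted p = 0.0681), with the normal groups alone (adjusted p = 0.117) and without moderation at the stricter threshold.

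Among the tumors all 4 genes differed by site, as did 76.6% of all genes. The seminal vesicle tumor was lowest and apart from the next tumor for each of the 4. How many of all genes had that pattern was not counted. The span from highest to lowest tumor mean was 2.09 for Esco2 (adjusted p = 6.16e-14), 1.91 for Rad21 (4.19e-12), 1.89 for Smc4 (2.08e-08) and 1.84 for Sgo1 (4.08e-11). Esco2 means were 1.69 ± 0.33 (SD) in lung, 1.60 ± 0.12 in prostate and 0.88 ± 0.26 in mammary gland tumors, lung and prostate overlapping and mammary gland lying apart below them. Rad21 had its highest mean in prostate tumors (1.12 ± 0.39), whose arrays lay apart from lung (0.46 ± 0.20) but met those of mammary gland (0.46 ± 0.35), where the highest array equalled the lowest prostate tumor at 0.82. Lung and mammary gland overlapped. The Smc4 and Sgo1 orders were lung, prostate and mammary gland, each tumor overlapping the next.

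The size of the tumor change differed among the 4 sites for all 4 genes in a moderated F test, with a largest minus smallest change of 3.44 for Esco2 (adjusted p = 4.33e-14), 1.83 for Sgo1 (3.13e-07), 1.5 for Rad21 (1.39e-06) and 1.40 for Smc4 (0.00143). This test passed for 74.2% of all genes, so that the count of 4 is not far from the background. Prostate and seminal vesicle tumors come from the same transgene and strain, and each of the 4 genes rose more in prostate, as did 22.6% of all genes. The prostate change exceeded the seminal vesicle change by 3.44 ± 0.22 (SE, log2) for Esco2 (adjusted p = 7.2e-14), number 6 of 6759 genes. It did so by 1.83 ± 0.26 for Sgo1 (adjusted p = 5.32e-07), 1.5 ± 0.22 for Rad21 (1.23e-06) and 1.32 ± 0.34 for Smc4 (0.00154). Without moderation, at a p under 0.001 and 2-fold, Smc4 passed neither this test (adjusted p = 0.00352) nor that among the 4 sites (adjusted p = 0.0038). Mammary gland and lung share the FVB strain but not the promoter, and there Esco2 rose less in mammary gland (mammary minus lung -1.45 ± 0.24, adjusted p = 3.4e-05), as did 12% of all genes. No such difference passed for Rad21 (0.18, 95% interval -0.31 to 0.66), Sgo1 (0.25, -0.31 to 0.81) or Smc4 (-0.73, -1.46 to 0.01). Only the Smc4 interval reaches the size of the Esco2 difference. Strain and site cannot be told apart between the C57BL/6 and the FVB pair of sites.

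**Figure D2:**
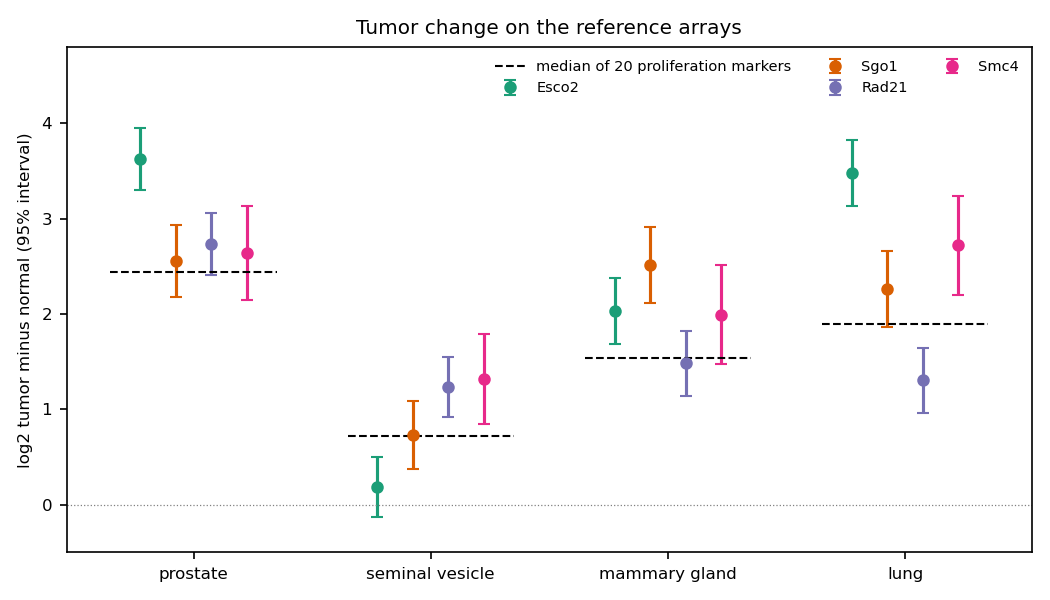
Tumor minus normal change of each gene (log2 scale, vertical axis) at the 4 sites. Points are the fitted differences, and whiskers their 95% confidence intervals. Dashed lines mark the median change of the proliferation markers. Esco2 spans 0.18 in seminal vesicle to 3.62 in prostate, the widest span of the 4 genes, and the seminal vesicle change is the smallest of the 4 sites for Esco2, Rad21, Smc4 and Sgo1 alike.

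Arrays of similar database number were treated as possible batches, the label giving nothing more about them. The first block of numbers holds 3 normal and 1 tumor array of prostate and 3 of each group of mammary gland and lung. Within it Esco2 rose by 3.86 in prostate, 2.30 in mammary gland and 3.58 in lung, and Rad21 by 3.25, 1.36 and 1.19. Smc4 rose there by 3.14, 1.94 and 2.82 and Sgo1 by 2.40, 2.43 and 2.16, all with an adjusted p under 0.05. The prostate values there rest on 1 tumor array, whose spread is assumed to be that of the other groups, so they are no replicated check. Smc4 differed between mammary gland and lung within this block (-0.88, adjusted p = 0.00528). All normal seminal vesicle arrays lie in a block of numbers that holds none of the seminal vesicle tumors, so block and tumor cannot be told apart there. With the blocks as a fixed factor the Rad21 difference between prostate and seminal vesicle was 0.90 (adjusted p = 0.0557).

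Proliferation markers moved with these genes. The mean log2 ratio of 20 measured markers of 25 listed was -1.74 in normal prostate and 0.58 in its tumors, -1.64 and -0.96 in seminal vesicle, -1.53 and -0.03 in mammary gland, and -1.46 and 0.43 in lung. Their median change was 2.44, 0.72, 1.54 and 1.89, and 18, 15, 19 and 19 of the 20 rose. Esco2, at 0.18, was below the marker median in seminal vesicle and above it at the other 3 sites, where it was 3.62, 2.03 and 3.48. Means of markers of other cells differed as well. Epithelial genes (9 of 13 measured) averaged 1.17 to 1.43 on the normal prostate arrays and -0.90 to -0.59 on its tumor arrays, and neuroendocrine genes (7 of 12) averaged -0.40 to -0.28 and 1.15 to 1.67. In seminal vesicle the epithelial mean was 1.32 to 1.53 in normal tissue and 1.57 to 2.10 in tumors, and the mean of fibroblast and matrix genes (7 of 10) was -1.75 to -1.54 and -0.70 to 0.72. Adipocyte genes (10 of 14) averaged 3.30 to 3.76 in normal mammary gland and 0.40 to 1.92 in its tumors, and endothelial genes (7 of 9) 1.72 to 2.43 in normal lung and 0.48 to 0.84 in its tumors. The part of dividing cells and of these cell types in the changes of the 4 genes was not tested.

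The wider machinery, 59 other listed genes of which 36 were measured on the reference arrays, had smaller median changes. Of the 36, 32 rose and 1 fell in prostate, 17 rose and 4 fell in seminal vesicle, and 25 rose and 0 fell in mammary gland and again in lung. The median change was 0.89, 0.28, 0.52 and 0.62, against -0.03, 0.04, -0.02 and -0.06 over all genes tested and 2.69, 0.98, 2.01 and 2.49 over the 4 genes above. The 4 genes and the lists were chosen with earlier results of these data known. That choice can favour the larger medians of the 4, and the difference was not tested. Comparisons at different sites use separate normal samples.

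Among partners of Rad21 in the ring, Smc1a rose at every site, by 1.31 in prostate, 0.73 in seminal vesicle, 0.79 in mammary gland and 1.09 in lung. Smc3, the substrate of Esco2, rose by 1.08 in seminal vesicle, 0.58 in lung and 0.36 in prostate and was 0.24 in mammary gland, where it did not pass. Smc3 thus rose more in seminal vesicle than in prostate (prostate minus seminal vesicle -0.72), the opposite order to Rad21. Stag1, which binds Rad21 and completes the complex, rose by 1.04, 0.42, 0.91 and 1.08 at the sites in the same order. Of the genes that load, release or modify cohesin, the loader Nipbl passed at none of the 4 sites (-0.05, 0.16, 0.05 and 0.24). Esco1, the acetyltransferase that acts through the whole cycle, changed by 0.33 in prostate and 0.48 in lung and was 0.25 and 0.03 in seminal vesicle and mammary gland, which did not pass. Pds5b, a regulator that binds the ring, rose by 1.39 in prostate, 0.91 in seminal vesicle and 0.43 in mammary gland and was 0.25 in lung. Espl1, the separase that cuts Rad21, rose by 1.89 in prostate, 0.92 in mammary gland and 1.08 in lung, and was 0.19 in seminal vesicle, where the call failed. Securin (Pttg1) fell in seminal vesicle by 0.28 and rose in mammary gland and lung by 0.58 and 0.48.

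Smc4 rose by more than the 3 other condensin subunits measured, a difference that was not tested. Ncapg and Ncaph, subunits of condensin I, rose by 0.72 and 0.50 in prostate, 0.84 and 0.70 in mammary gland, and 0.94 and 0.72 in lung. In seminal vesicle Ncapg fell by 0.52, whereas Smc4 rose there by 1.32. Ncapd3, a subunit of condensin II, fell by 0.49 in prostate and by 0.72 in seminal vesicle. Smc2, the partner of Smc4, was not measured here. The centromere partners of Sgo1 (13 of 15 measured) rose in 13, 8, 10 and 10 cases at prostate, seminal vesicle, mammary gland and lung. Among them Mad2l1, of the spindle checkpoint, rose by 2.41, 0.66, 1.93 and 1.78, and Aurkb, the kinase of the chromosomal passenger complex, by 2.30, 0.35, 1.33 and 1.47. Both followed Sgo1 in having their smallest rise in seminal vesicle.

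**Figure D3:**
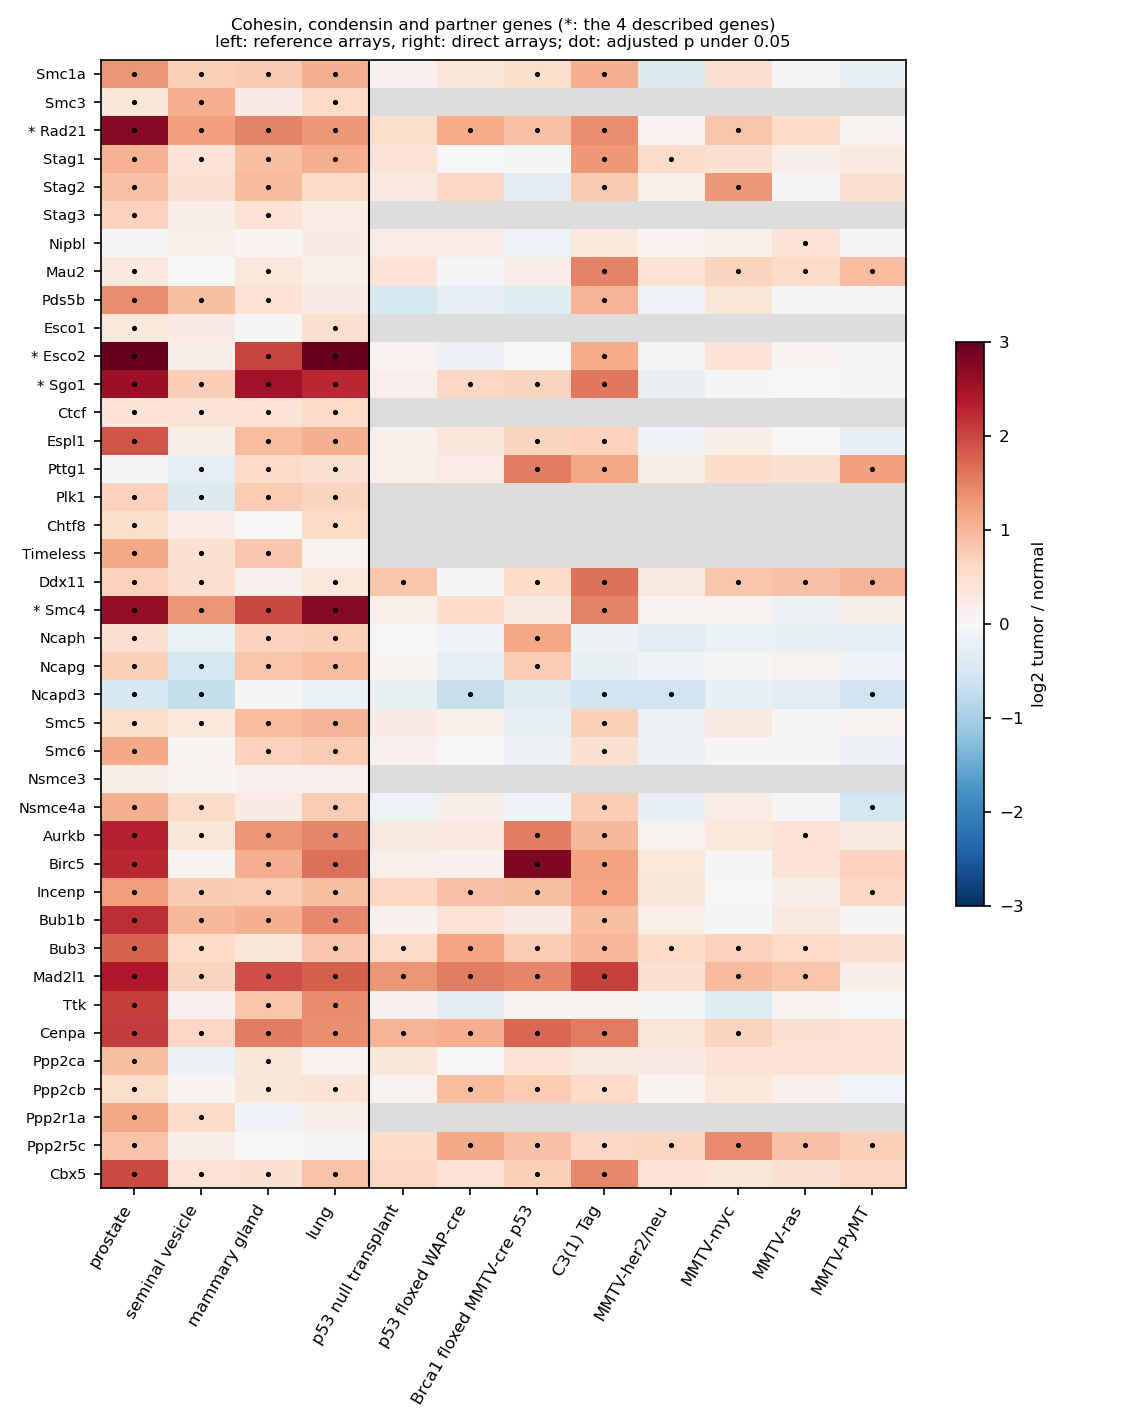
Change of the 4 genes and the other measured genes of the pathway (colour, log2 scale) in each tumor comparison (columns), grouped by role; dots mark an adjusted p under 0.05, and grey cells hold no value. The reference prostate column has 32 of 36 other genes higher, and the direct MMTV-her2/neu column 3 of 27.

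On the direct arrays all 4 genes rose in the C3(1)/SV40 T/t-antigen tumors, Rad21 and Sgo1 rose in the p53fp/fp;WAP-cre and the Brca1 Co/Co;MMTV-cre;p53 tumors, and Rad21 rose in the MMTV-myc tumors. None of the 4 passed in the p53-/- transplants or in the MMTV-her2/neu, MMTV-ras and MMTV-PyMT tumors at an adjusted p under 0.05 in limma, and none of these 16 values had an unadjusted p under 0.05. Higher calls made up 41.8% of all genes in the C3(1)/SV40 T/t-antigen model, 34.9% in the Brca1 model, 11.5% in the p53fp/fp;WAP-cre model and 20.8% in MMTV-myc, and 5.96%, 9.38%, 17.2% and 12.7% in the models without a called member. The share of 41.8% depends on the scale: the median of all genes on these arrays was 0.36, and with each array centred on its median 22.4% of genes rose and 19.5% fell (53.5% of calls higher, against 90.6% as deposited). Centring likewise moved the share of higher calls from 74.3% to 55.3% in the Brca1 model, from 88.4% to 53% in MMTV-myc and from 85.2% to 52.8% in MMTV-ras, whose median genes stood at 0.24, 0.21 and 0.18, and from 50.5% to 61.9% in p53fp/fp;WAP-cre. Each test is against a ratio of 0 and leaves out the spread of normal gland.

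In the C3(1)/SV40 T/t-antigen tumors Sgo1 read 1.72, 1.79, 0.48, 1.75 and 2.19, and Smc4 read 1.10, 2.18, 0.32, 1.58 and 2.22. Esco2 read 0.81, 2.03, 0.12, 1.83 and 0.79, and Rad21 read 2.00, 1.74, -0.78, 1.92 and 2.15. Replicate 3 was the lowest for each gene, and with it 19 of the 20 values were above 0. The mean ratio was 1.59 ± 0.19 (SE, log2) for Sgo1 (adjusted p = 2.78e-08), 1.48 ± 0.23 for Smc4 (3.68e-06), 1.40 ± 0.27 for Rad21 (5.38e-05) and 1.12 ± 0.18 for Esco2 (7.5e-06). Every array was above 0 for 36.9% of all genes in this model. With each array centred the 4 means were 1.26, 1.15, 1.07 and 0.79, all still called, and without replicate 3 they were 1.86, 1.77, 1.95 and 1.37. The tumors of this model on the reference arrays gave 2.51, 1.99, 1.48 and 2.03 for Sgo1, Smc4, Rad21 and Esco2 against normal mammary gland, a difference between array sets that was not tested.

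Of the 4 genes, Rad21 passed the test in the most models, 4 of 8. The share of all genes that passed in as many models was not counted. Among 5768 genes its rise was number 268 in C3(1)/SV40 T/t-antigen and 246 in p53fp/fp;WAP-cre tumors. It was number 720 in the Brca1 model and 595 in MMTV-myc, where 34.9% and 20.8% of all genes rose. Rad21 read 0.80, 0.84, 1.84 and 0.99 in p53fp/fp;WAP-cre tumors and 1.62, 1.17, 0.92, 0.55 and 0.12 in Brca1 Co/Co;MMTV-cre;p53 tumors. In MMTV-myc tumors it read 0.40, 0.72, 0.86 and 1.38. All 13 of these values were above 0. How many of all genes had every array above 0 is not given for these models, where the median of all genes was -0.08, 0.24 and 0.21. The means were 1.12 ± 0.30 (SE, log2; adjusted p = 0.00557), 0.88 ± 0.27 (0.00719) and 0.84 ± 0.30 (0.0376). The p53fp/fp;WAP-cre call was lost without replicate 3 (0.88, adjusted p = 0.0849), the Brca1 call without replicate 1 (0.69, adjusted p = 0.0599), and the MMTV-myc call without replicate 2, 3 or 4 (0.88, 0.83 and 0.66). Centring also ended the MMTV-myc call (0.62, adjusted p = 0.115), and quantile normalization that of the Brca1 model (0.54, adjusted p = 0.068). Rad21 was above 0 on all 5 arrays of the p53-/- transplants (mean 0.54, 95% interval -0.0026 to 1.08) and of MMTV-ras (0.54, -0.0003 to 1.08), just short of the threshold before adjustment. The share of all genes above 0 on every array is not given for these models either.

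Sgo1 read 0.24, 0.52, 0.88 and 0.85 in p53fp/fp;WAP-cre tumors (mean 0.62 ± 0.21, SE, adjusted p = 0.0297). It read 0.86, 0.99, 0.14, 0.46 and 0.86 in Brca1 Co/Co;MMTV-cre;p53 tumors (0.66 ± 0.19, adjusted p = 0.0041). All of these arrays were above 0, a pattern whose share of all genes is not given here, but below 4 of the 5 C3(1)/SV40 T/t-antigen arrays. The p53fp/fp;WAP-cre arrays are the only ones in their block of array numbers, and with the blocks as a random factor neither Sgo1 (adjusted p = 0.197) nor Rad21 (adjusted p = 0.0745) passed in that model. The Sgo1 call in that model was also lost without replicate 2, 3 or 4 (0.65, 0.54 and 0.54). In the 4 MMTV oncogene models Sgo1 means lay between -0.22 and -0.02, with arrays on both sides of 0 in each. The Esco2 mean in the models other than C3(1)/SV40 T/t-antigen lay between -0.18 and 0.39 and the Smc4 mean between -0.18 and 0.54. Neither gene passed in any of these 7 models, and Smc4 had no value on 1 array each of the p53-/- and p53fp/fp;WAP-cre groups, nor Esco2 on 1 of MMTV-ras.

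**Figure D4:**
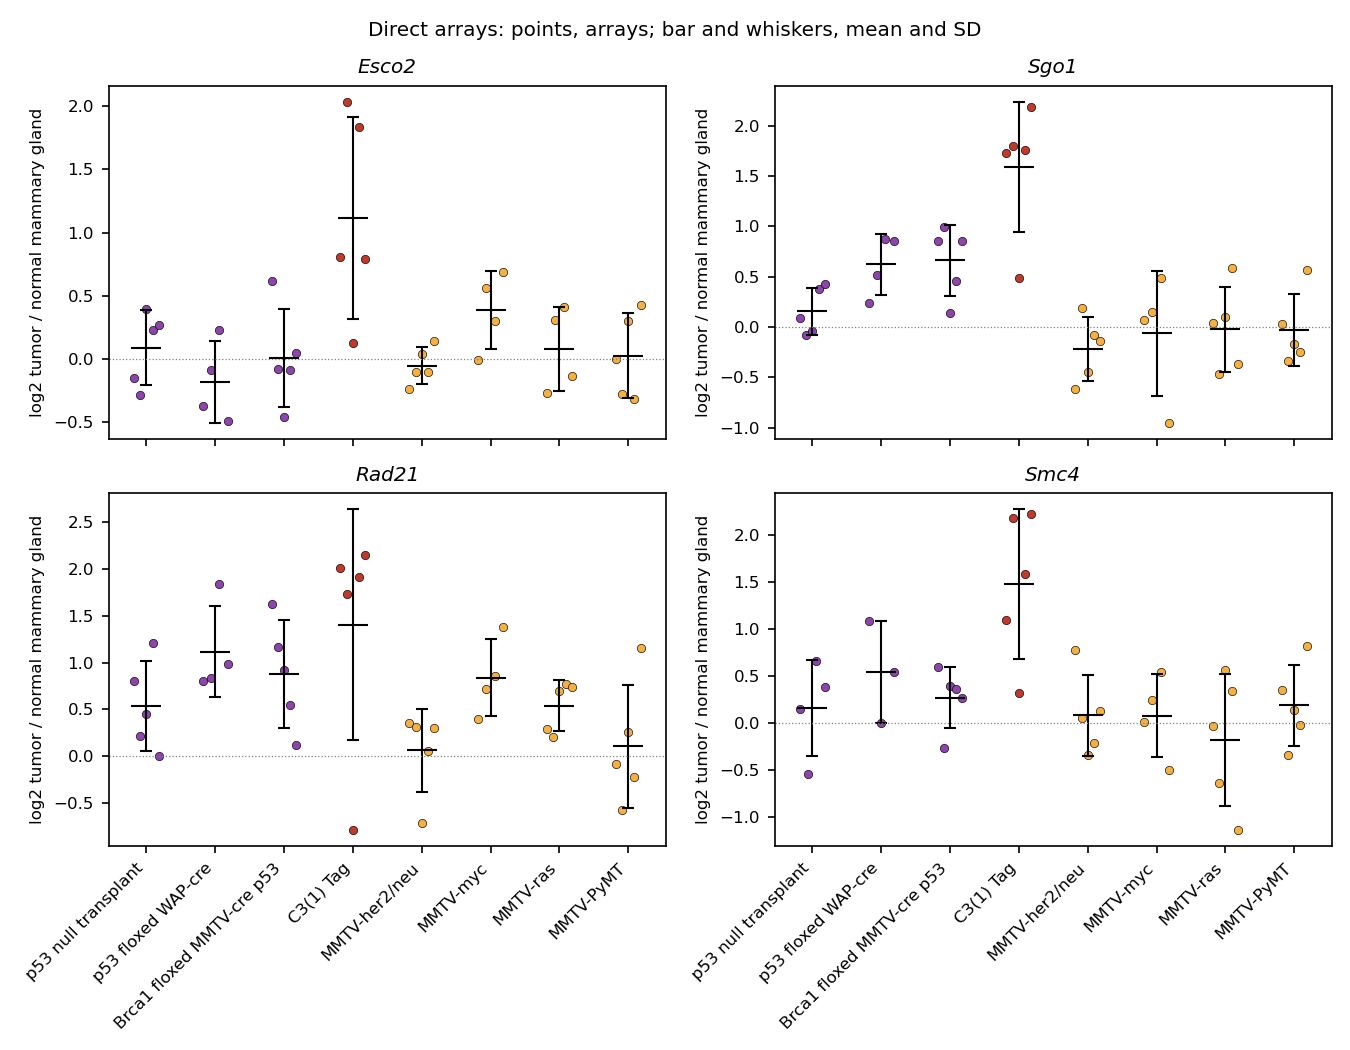
Log2 ratio of tumor to normal mammary gland (vertical axis) for each gene on the 38 direct arrays, by model; points are arrays, bars and whiskers the mean and SD. The C3(1)/SV40 T/t-antigen mean is the highest for each gene (1.12 for Esco2, 1.40 for Rad21, 1.48 for Smc4 and 1.59 for Sgo1), and 1 array of this model is low for all 4.

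The ratio differed among the 8 models for each of the 4 genes, with a span between the highest and lowest mean of 1.80 for Sgo1 (adjusted p = 3.11e-05), 1.66 for Smc4 (0.00472), 1.30 for Esco2 (0.0043) and 1.34 for Rad21 (0.0366), and 42.4% of all genes passed this test. Among the 5 FVB models the C3(1)/SV40 T/t-antigen tumors exceeded the mean of the other 4 by 1.67 ± 0.21 (SE, log2) for Sgo1 (adjusted p = 1.26e-06), number 17 of 5768 genes. The excess was 1.44 ± 0.26 for Smc4 (0.000303), 1.01 ± 0.21 for Esco2 (0.00108) and 1.02 ± 0.30 for Rad21 (0.0171), and 16.3% of all genes were higher in this contrast. With each array centred 7% were higher (59.9% of calls higher, against 92.6%), and the calls of Sgo1 (1.42), Smc4 (1.19) and Esco2 (0.78) held. The Rad21 call was lost with centring (0.77, adjusted p = 0.0807), with quantile normalization (0.71, adjusted p = 0.0766) and without C3(1)/SV40 T/t-antigen replicate 1 (0.87), 2 (0.93), 4 (0.89) or 5 (0.83). The Rad21 test among the 8 models was lost too with centring (1.13, adjusted p = 0.0957), with quantile normalization (0.96, adjusted p = 0.103) and in 10 of 38 fits without 1 array, which gave spans of 1.16 to 1.34.

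Within blocks of array numbers that hold the C3(1)/SV40 T/t-antigen model and another, Sgo1, Smc4 and Esco2 were higher in it than on every other array in 4 of 4 blocks, and Rad21 in 3 of 4. Apart from the block with most arrays, each block sets 1 array of this model against 1 other. The ratios were not centred, and the median of all features was also higher on this model's arrays in each block (0.04 against -0.42 in the block of replicate 3). The share of all genes with the same pattern was not counted. In the block with most arrays, Sgo1 read 1.75 and 1.79 in these tumors and -0.44 to 0.58 on 4 MMTV-her2/neu and MMTV-ras arrays, and Rad21 read 1.74 and 1.92 against -0.71 to 0.77. The block in which Rad21 was lower (-0.78 against -0.57 in an MMTV-PyMT tumor) holds replicate 3.

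The p53 and Brca1 models together exceeded the 4 MMTV oncogene models in Sgo1 by 0.56 ± 0.15 (SE, log2; adjusted p = 0.00567), as 6.67% of all genes did, and the other 3 genes did not pass (Rad21 0.46, Smc4 0.28 and Esco2 -0.14, with 95% intervals of 0.03 to 0.88, -0.11 to 0.68 and -0.44 to 0.16). These models differ in strain and share no block of array numbers, neither of which can be told apart from the model. A comparison of the C3(1)/SV40 T/t-antigen with the Brca1 Co/Co;MMTV-cre;p53 tumors was added after the values were seen, because their proliferation markers had like means (1.39 ± 0.59 and 1.43 ± 0.38, SD, n = 5 each). The first mean includes the low replicate 3 at 0.39. The other arrays of that model read 1.31 to 1.79, and the Brca1 arrays 0.95 to 2.01. Strain and block of array numbers differ here too, and cannot be told apart from the model. Smc4 was higher in the C3(1)/SV40 T/t-antigen tumors by 1.21 ± 0.33 (SE, log2, adjusted p = 0.0103), Esco2 by 1.11 ± 0.26 (0.00325) and Sgo1 by 0.93 ± 0.27 (0.0158). Rad21 was not (0.53, 95% interval -0.24 to 1.29), and 11.8% of all genes were higher. With a spread estimated from these arrays alone none of the 4 genes passed, while 255 of all 5768 genes did in either direction. The adjusted p was then 0.0559 for Smc4, 0.0804 for Esco2 and 0.104 for Sgo1. With the shared spread, Sgo1 lost its call without replicate 3 of the Brca1 model (0.80) or replicate 5 of the C3(1)/SV40 T/t-antigen model (0.78). Without the low C3(1)/SV40 T/t-antigen replicate 3, Rad21 passed (1.08, adjusted p = 0.0127).

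Of the 59 other pathway genes 27 were measured on the direct arrays, and 21 rose and 1 fell in the C3(1)/SV40 T/t-antigen tumors (median 0.90, against 0.36 over all genes). In the Brca1 model 15 rose and 0 fell (0.55 against 0.24). In the p53fp/fp;WAP-cre model 6 rose and 1 fell (0.23 against -0.08), and in the p53-/- model 4 rose and 0 fell (0.23 against -0.04). In MMTV-myc and MMTV-ras 7 each rose and 0 fell (0.32 against 0.21, and 0.21 against 0.18). In MMTV-PyMT 5 rose and 2 fell (0.18 against -0.05), and in MMTV-her2/neu 3 rose and 1 fell (0.16 against -0.03). Of all genes 20.8%, 17.2%, 12.7% and 9.38% rose in these MMTV models, in the same order, so these counts are not far from the background. Condensin subunits parted from Smc4: Ncaph and Ncapg rose in the Brca1 model by 1.17 and 0.77, where Smc4 was 0.27, and did not pass in the C3(1)/SV40 T/t-antigen model (-0.17 and -0.21), where Smc4 rose by 1.48. Stag1 rose by 1.31 in the C3(1)/SV40 T/t-antigen tumors, as Smc4 did, and was -0.04 in the Brca1 model. Mad2l1, a checkpoint partner of Sgo1, rose by 2.04 and 1.47 in these models and by 1.55 and 1.32 in the p53fp/fp;WAP-cre and p53-/- tumors, in the last of which Sgo1 was 0.16. The proliferation markers (16 measured) averaged 0.58 and 0.67 in the p53-/- and p53fp/fp;WAP-cre models and 0.26 to 0.57 in the MMTV oncogene models. Skeletal muscle genes (12) averaged -4.31 to -0.85 and adipocyte genes (10) -3.90 to -0.95 over the direct arrays, and their part in the ratios of the 4 genes was not tested.

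Over the 35 reference arrays, which share the reference pool and fall into normal and tumor groups, the pairwise Pearson r among the 4 genes ran from 0.824 (Esco2 and Rad21) to 0.925 (Smc4 and Sgo1). Esco2 was most like Brca1 (0.967), Ccna2 (0.952) and Aspm (0.945). Smc4 was most like Kif11 (0.964), Top2a (0.955) and Stag1 (0.955), and Sgo1 most like Kpna2 (0.963), Nek2 (0.963) and Haus6 (0.961). Rad21 was most like Rbbp6 (0.992), Nucks1 (0.966) and Hmgb1 (0.965). On the direct arrays the pairwise r among the 4 genes was lower, 0.58 to 0.78, over 35 to 38 arrays. Rad21 was there again most like Rbbp6 (0.953), then Ctnna1 (0.865) and Kif23 (0.806), and Sgo1 most like Cdca3 (0.902), Mcm3 (0.863) and Lbr (0.857). Smc4 was most like Csnk1g3 (0.897), Ptprs (0.866) and Zbtb2 (0.854), and Esco2 most like Phf6 (0.845), Lta (0.823) and Casp2 (0.772), none of which was among the closest genes on the reference arrays. These are descriptions over 6737 and 5364 ranked genes. Rbbp6 and Rad21 were also close in value. Rbbp6 minus Rad21 averaged -0.04 (SD 0.19) over the 35 reference arrays and -0.12 (SD 0.27) over 36 direct arrays. Each ratio of Rad21 rests on 1 feature, and the reason for this likeness was not tested.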

How the data were processed

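RNA of 73 mouse samples was measured on 2-colour cDNA arrays of 9596 features. Per feature and array, 1 log2 ratio was deposited by the authors. The labels' protocols name TRIZOL extraction and RNeasy cleanup, and image analysis, background correction and filters are not given in the sources used here. Base and direction are not stated by the labels. Read as log2, the interaction rule of the series text gave 2633 of 9532 features, where that text states 2638 (natural log, 3764; log10, 4168). Ratios were read as sample over reference, from markers of the normal tissues, and as tumor over normal, from the labelled dyes; over 5755 genes the direct C3(1)/SV40 T/t-antigen mean and the tumor change seen in mammary gland against the reference had an r of 0.498. Dyes were fixed and no swap is labelled, so a dye bias of a gene does not cancel. Features were named through the platform's annotation and RefSeq (GRCm38.p6), and 7486 carry 1 symbol (7395 matched by gene ID), 483 several and 1627 none. Features of 1 gene were averaged, giving 6777 genes on the reference and 5768 on the direct arrays.

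Group means (8 per array set) were fitted with limma 3.58.1 moderation in R 4.3.3 (package data.table, version 1.17.8), with at least 3 values per group, Benjamini-Hochberg adjustment over all genes and a threshold of 0.05, and tested on simulated data. The spread of a gene was estimated over all groups of an array set together, so an SE does not follow the spread of a single group. Tables and figures used Python 3.11.15, numpy 2.4.6, pandas 2.3.3, scipy 1.17.1 and matplotlib 3.10.9. The number of arrays limits the precision, and without intensities weak signals could not be judged. Genes named beside the 4 come from listed pathway sets, all measured, and from the 3 of highest Pearson r per gene and array set with values on 9 in 10 arrays. The 4 genes and all lists were chosen with earlier results of these data known. Alternatives were other scalings, genes with all values, single features, array number blocks, a replicate block, no moderation, narrower fits and leaving out each array.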

Additional observations from a re-analysis of the deposited data

Results flagged for a closer look

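Of 63 gene and group pairs with 4 to 10 arrays, 6 held an array far from the others of its group by Dixon's ratio, and chance flags about 1 in 20 such groups. Replicate 3 of the direct C3(1)/SV40 T/t-antigen tumors read -0.78 for Rad21, against 1.74 to 2.15 on the other 4 arrays, and 0.48 for Sgo1, against 1.72 to 2.19. Replicate 4 of normal prostate read -2.41 for Smc4, against -1.25 to -1.22 on the other 3 arrays, and -1.75 for Rad21, against -1.58 to -1.56. Replicate 4 of normal mammary gland read -0.59 for Esco2, where the others were -1.40 to -1.29. Replicate 3 of MMTV-her2/neu read -0.71 for Rad21, where the others were 0.05 to 0.36.

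The other results listed here are differences of the tumor change between groups that passed the test of the difference itself. The span of the change among the 4 sites was 3.44 for Esco2, 1.83 for Sgo1, 1.5 for Rad21 and 1.40 for Smc4. Prostate exceeded seminal vesicle by 3.44 for Esco2, 1.83 for Sgo1, 1.5 for Rad21 and 1.32 for Smc4, and mammary gland minus lung was -1.45 for Esco2. Among the 8 direct models the span was 1.80 for Sgo1, 1.66 for Smc4, 1.34 for Rad21 and 1.30 for Esco2. C3(1)/SV40 T/t-antigen tumors exceeded the other 4 FVB models by 1.67 for Sgo1, 1.44 for Smc4, 1.02 for Rad21 and 1.01 for Esco2. They exceeded the Brca1 model by 1.21 for Smc4, 1.11 for Esco2 and 0.93 for Sgo1, in the comparison chosen after its values were seen. The p53 and Brca1 models exceeded the 4 MMTV oncogene models by 0.56 for Sgo1.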

How the results depend on the processing

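Under settings other than leaving out an array, 152 counts of the 4 genes called were within 1.5 times the value reported and 19 were not. The loss of 1 gene from a count of 4 lies within this range, as does a count that stays at 0. Each of the 4 genes has 1 feature, so the single-feature setting left its values as they were. The tally therefore does not measure stability. Esco2, Rad21, Smc4 and Sgo1 kept their calls in prostate, mammary gland and lung under every scaling, block and gene filter tried. In the mammary gland minus lung comparison 2 genes were called, Smc4 joining Esco2, with number blocks as a fixed factor, in the first block alone and with the compared groups alone. The other counts that moved by more than this were in direct models. MMTV-myc had 0 genes with centring, with quantile normalization and without moderation (p under 0.001 and 2-fold). Under quantile normalization the p53-/- transplants had 1 (Rad21, 0.75) and the Brca1 model 1. Without moderation p53fp/fp;WAP-cre, the Brca1 model and the p53 and Brca1 models against MMTV had 0, and the 8 models and C3(1)/SV40 T/t-antigen minus Brca1 had 1 each. Sgo1 in seminal vesicle and among normal tissues, Smc4 among the sites and in prostate minus seminal vesicle, and Rad21 in C3(1)/SV40 T/t-antigen minus the other FVB models also missed that stricter threshold. With a random number block p53fp/fp;WAP-cre had 0. With the compared groups alone p53fp/fp;WAP-cre had 1, MMTV-ras 1 (Rad21), the p53 and Brca1 models against MMTV 2 and C3(1)/SV40 T/t-antigen minus Brca1 0. With genes on every array compared the 8 models had 2, because Esco2 and Smc4 were not tested. The cause of the other changes was not tested.

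Leaving out 1 array gave counts of 0 to 2 in p53fp/fp;WAP-cre, 1 to 2 in the Brca1 model, 0 to 1 in MMTV-myc and 2 to 4 among the 8 models. Signs turned only for values not called. Under quantile normalization these were Esco2 at -0.0033 in seminal vesicle, 0.0067 in p53fp/fp;WAP-cre, -0.046 in Brca1, 0.085 in MMTV-her2/neu and -0.13 in MMTV-ras, Smc4 at -0.0094 in MMTV-myc and Sgo1 at 0.056 in MMTV-PyMT. With centring they were Esco2 at -0.18 in Brca1 and -0.19 in MMTV-ras, Smc4 at -0.15 in MMTV-myc and Sgo1 at 0.0026 in MMTV-PyMT. With a random number block Rad21 was -0.022 and Smc4 -0.038 in MMTV-her2/neu. Without 1 array, Sgo1 ranged from -0.0099 to 0.39 in mammary gland minus lung, -0.25 to 0.23 in MMTV-myc, -0.17 to 0.090 in MMTV-ras and -0.18 to 0.045 in MMTV-PyMT. Smc4 ranged from -0.0025 to 0.40 in p53-/- transplants, -0.10 to 0.18 in MMTV-her2/neu, -0.081 to 0.27 in MMTV-myc and -0.37 to 0.055 in MMTV-ras. Esco2 ranged from -0.14 to 0.12 in Brca1, -0.034 to 0.19 in MMTV-ras and -0.073 to 0.11 in MMTV-PyMT, and Rad21 from -0.011 to 0.25 in MMTV-her2/neu and -0.15 to 0.28 in MMTV-PyMT.

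The samples share replicate numbers, and same-numbered arrays did not deviate together (r of -0.24 to 0.22 over 16 reference pairs, 1 of 16 best with its own number). With a replicate block the counts were unchanged: 4, 3, 4 and 4 in prostate, seminal vesicle, mammary gland and lung, and 4, 4, 1 and 3 among the sites, for prostate minus seminal vesicle, for mammary gland minus lung and among normal tissues. The number of arrays, fixed dyes and ratios without intensities limit every value.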
